A study of Homo sapiens with 6 samples.

Results

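The autophagy machinery was followed in Hep-G2 cells depleted of calmegin. Members were the genes of the expression table whose symbol was on a list of 39 names, which run from the kinase complex that starts autophagy to the receptors that select its cargo. The list matched 38 of the 58735 genes in the table, since FAM134B is the older symbol of RETREG1 and has no entry of its own. Of these, 37 passed the expression filter and were tested, and ULK2 did not pass it.

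Hep-G2 is an established human liver cancer line. Messenger RNA was sequenced from cells carrying a lentiviral hairpin against CLGN, the gene of the chaperone calmegin in the endoplasmic reticulum (sh-CLGN, labelled as CLGN knock down, n = 3 libraries), and from cells carrying a control hairpin (sh-NC, labelled WT with the treatment shcontrol, n = 3 libraries). Both kinds of cell were selected with puromycin, per the study's methods, and received no other treatment named in the labels. With 1 hairpin per group, effects of the hairpin or of the culture cannot be told apart from the loss of CLGN. The labels do not say that the 3 libraries of a group came from separate cultures, so p-values measure the spread between these libraries, which may be technical.

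Autophagy delivers cytoplasm to lysosomes inside a double membrane. The ULK1 kinase complex starts the process, a phosphatidylinositol 3-kinase complex marks the forming membrane, ATG2 and ATG9 proteins supply it with lipid, and conjugation enzymes attach ATG8 proteins to it. Receptors then tether cargo to the ATG8 proteins, and a further set of receptors does so for fragments of the endoplasmic reticulum. In the liver the pathway is known for turning over protein, lipid droplets and mitochondria during fasting.

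The hairpin is shown first because it defines the comparison and because short matches to it can occur in other transcripts. Its target matched chr4:140392328-140392346 on the minus strand (GRCh38), inside an exon of 2 annotated CLGN transcripts. Capitals mark the 7 bases that pair with positions 2 to 8 of the guide strand.
CLGN target: cgacatatgtaTACCACAa
In the 3′ UTRs of the tested members, 2 held this heptamer, and another 2 held the heptamer that pairs with positions 3 to 9. The 4 sites are given in windows of 25 bases with the heptamer in capitals, for UVRAG (chr11:76141944-76141968, plus strand), ATG2B (chr14:96284662-96284686, minus strand), PIK3C3 (chr18:42084479-42084503, plus strand) and ATG7 (chr3:11555016-11555040, plus strand).
UVRAG: gcccccgggTACCACAgtccacctt
ATG2B: actgtgattTACCACAagataattg
PIK3C3: taagaatgcATACCACctgatccag
ATG7: ggattcaagATACCACcagttcaga
Either heptamer was found in 10.8% of the 37 tested members and in 14.8% of the 10880 tested genes with an annotated 3′ UTR of at least 50 bases. A match of this kind is a description of the sequence and does not show that the hairpin acts there.

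CLGN itself was examined in every library before the members, in FPKM. FPKM is a level scaled by gene length and, in the deposited values, by an adjusted library size. Its expression stood at 24.1, 21.1 and 26.1 FPKM in the libraries of sh-NC, and at 9.48, 8.88 and 8.60 FPKM in those of sh-CLGN. For CLGN, all 3 sh-CLGN libraries lay below all 3 sh-NC libraries. CLGN fell by 1.31 on the log2(FPKM + 1) scale (SE 0.081, limma adjusted p = 8.3e-06), to 37.8% of its FPKM in the controls.

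The libraries held 14955816 to 16244639 reads assigned to genes. In the labelled hepatocyte type, all 10 hepatocyte markers passed the filter, and their summed level was 7411 to 7622 FPKM in sh-NC against 7621 to 8096 FPKM in sh-CLGN. Within that sum 4 markers rose and 5 fell, among them AFP, from 2670 to 3782 FPKM, ALB, from 2007 to 1076 FPKM, and TF, from 181 to 58.4 FPKM. The 11 fibroblast markers summed to 15.7 to 17.9 FPKM in sh-NC against 137 to 142 FPKM in sh-CLGN, with all 7 tested markers higher, while DCN and THY1 had at most 3 reads in any library. Of the immune markers, LYZ was at 68.7 to 76.2 FPKM in sh-NC and at 60.7 to 67.9 FPKM in sh-CLGN and was called lower, while PTPRC and CSF1R had at most 4 reads and CD3E and CD68 at most 3. The 5 endothelial markers summed to 3.36 to 3.67 FPKM in sh-NC and to 2.38 to 2.65 FPKM in sh-CLGN, with KDR at 0. Mitochondrial genes took 3.25 to 4.02% of the reads in sh-NC against 5.49 to 5.80% in sh-CLGN. The fibroblast and endothelial sums, LYZ and the mitochondrial share separated the groups, while the read totals and the hepatocyte sum overlapped. The part of these measures in the results on the members was not tested.

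To see how the machinery changed with CLGN depletion, each gene was tested on log2(FPKM + 1), and a gene was called higher or lower at an adjusted p of at most 0.05. Of the 37 tested members, 15 rose and 12 fell in sh-CLGN, and 10 were not called. Over all 13074 genes tested, 26.7% were higher and 39.0% were lower. The median log2 fold change was 0.07 over the members and -0.08 over all genes. The 3 libraries of each group did not overlap for 27 of the 37 members, against 70.2% of all genes. With scaling by plain read totals, in place of the adjusted library sizes behind the deposited FPKM, 21 members were higher and 7 lower. With TPM these were 20 and 9. RETREG1, which rose, and ATG4D, which fell, also passed an absolute log2 fold change of 1, against 6.28% of all genes, but RETREG1 met the expression filter through its sh-CLGN libraries alone. In bulk RNA, fewer cells expressing a gene and less RNA of it per cell cannot be told apart.

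**Figure D1:**
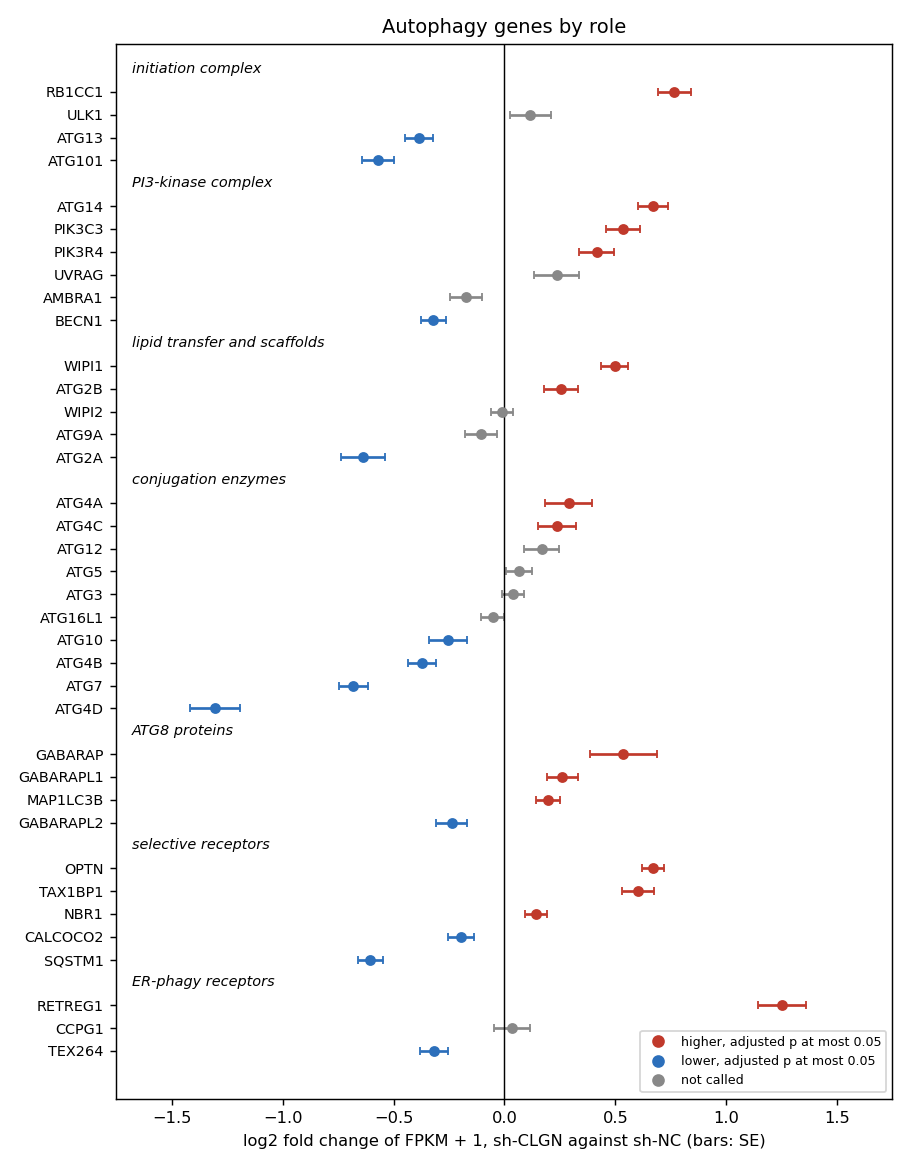
Log2 fold change of FPKM + 1 in sh-CLGN against sh-NC (horizontal axis, bars are SE) for the 37 tested autophagy genes, grouped by role, with red for higher, blue for lower and grey for not called. Every role group holds at least 1 red and 1 blue gene, and the extremes are RETREG1 at 1.25 and ATG4D at -1.31.

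On the deposited scale each role group held members that rose and members that fell. With scaling by read totals BECN1, GABARAPL2 and TEX264 lost their calls. The phosphatidylinositol 3-kinase complex, the ATG8 proteins and the receptors of the endoplasmic reticulum then held no lower member. The direction held for the 27 called members in all alternative settings, apart from ATG4C after a correction for GC content. Of the 27 calls, 12 held wherever the gene was tested, namely RB1CC1, ATG101, PIK3C3, ATG14, ATG2A, WIPI1, ATG4D, ATG7, SQSTM1, OPTN, TAX1BP1 and RETREG1. RETREG1 was not tested in the fits without an sh-CLGN library where the filter was applied anew. The other 15 calls were lost in a test against a fold change of 1.2, and some of them elsewhere, as given with each group.

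In the initiation complex RB1CC1 rose, ATG13 and ATG101 fell, ULK1 was not called and ULK2 was not tested. RB1CC1, the large scaffold on which the ULK kinases assemble (chr8:52622456-52745843, minus strand), was at 3.13, 2.82 and 3.50 FPKM in sh-NC and at 5.95, 6.14 and 6.05 FPKM in sh-CLGN. All sh-CLGN libraries stood above all sh-NC libraries, and the change was 0.77 (SE 0.073, limma adjusted p = 6.0e-05).

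ATG101, which stabilises ATG13 in the complex (chr12:52069246-52077494, plus strand), was at 14.1, 15.0 and 12.7 FPKM in sh-NC and at 9.58, 8.56 and 9.04 FPKM in sh-CLGN. The groups did not overlap, and ATG101 fell by 0.57 on the log2 scale (SE 0.072, limma adjusted p = 2.55e-04). Another annotated gene on the opposite strand overlaps 19.2% of the exonic bases of ATG101. ATG13, the subunit that links the kinase to the scaffold and the member of this group with the highest FPKM averaged over all 6 libraries, was at 13.5, 13.4 and 12.8 FPKM in sh-NC and at 10.3, 9.03 and 10.3 FPKM in sh-CLGN. It was lower in all 3 sh-CLGN libraries, with a change of -0.39.

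ULK1, the kinase itself, was not called, at 8.19 ± 1.04 FPKM in sh-NC against 8.93 ± 0.589 FPKM in sh-CLGN (mean ± SD, n = 3), and its libraries overlapped. It was called higher under TPM, quantile and read-total scaling and after GC correction. ULK2, its close relative, had 13 to 21 reads per library and was left out of the test. Within each library, the level of RB1CC1 was 0.228 ± 0.0439 of that of ATG101 in sh-NC against 0.669 ± 0.0482 in sh-CLGN (SD, n = 3). Multiplying a library by a common factor cannot alter such a ratio, but quantile normalization or a GC correction can. After GC correction the change of RB1CC1 was 0.57 and that of ATG101 -0.32, at GC contents of 37.6% and 59.8%. The same limit holds for the other ratios and shares.

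The phosphatidylinositol 3-kinase complex had 3 members that rose, 1 that fell and 2 that were not called. ATG14, the subunit that directs the lipid kinase to sites of autophagosome formation (chr14:55366392-55411858, minus strand), was at 10.6, 12.4 and 11.2 FPKM in sh-NC and at 18.5, 19.6 and 18.0 FPKM in sh-CLGN. The lowest sh-CLGN library lay well above the highest sh-NC library, and the change was 0.67 (SE 0.066, limma adjusted p = 6.9e-05). It was also the member of this group with the highest mean FPKM.

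PIK3C3, the catalytic subunit (chr18:41955206-42087830, plus strand), was at 1.18, 1.22 and 1.25 FPKM in sh-NC and at 2.28, 2.29 and 2.07 FPKM in sh-CLGN, without overlap. Its change was 0.53 (SE 0.076, limma adjusted p = 4.7e-04) on the log2(FPKM + 1) scale, which understates the change of low genes, and 0.86 with voom on the reads recovered from the FPKM values. Its 3′ UTR is among the 4 that hold a heptamer printed above. PIK3R4, the regulatory kinase that anchors PIK3C3, rose by 0.42.

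BECN1, the core regulator shared by the ATG14 and UVRAG forms of the complex, fell from 9.62 ± 0.295 to 7.51 ± 0.333 FPKM (SD, n = 3), a change of -0.32. That call was lost with scaling by read totals, where the change was -0.15. On the opposite strand, CNTD1 or PSME3 overlap 17.1% of the exonic bases of BECN1, where reads may not have been counted. PSME3 fell by 0.69, from 60.3 to 37.04 FPKM. What the overlap does to the level of BECN1 was not tested. UVRAG, which directs the complex to endosomes, and AMBRA1, which activates it, were not called, at 0.24 and -0.17. UVRAG was called higher among protein-coding genes only, with TPM, read totals, voom and GC correction and without sh-NC replicate 2, and AMBRA1 was called lower with voom and without sh-CLGN replicate 3.

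Within each library, ATG14 was at 1.19 ± 0.125 times the level of BECN1 in sh-NC and at 2.50 ± 0.220 times in sh-CLGN (SD, n = 3), and all sh-CLGN libraries were higher. The summed level of the 6 genes was 36.8 to 40.3 FPKM in sh-NC against 47.4 to 49.6 FPKM in sh-CLGN. For any single sum or ratio of 3 against 3 libraries, complete separation gives p = 0.1 in a two-sided exact permutation test, the smallest p the design allows.

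Among the lipid transfer and scaffold proteins, the 2 ATG2 paralogs moved in opposite directions. ATG2A, which transfers lipid into the growing membrane (chr11:64894546-64917248, minus strand), was at 8.73, 9.26 and 7.55 FPKM in sh-NC and at 4.51, 4.99 and 5.85 FPKM in sh-CLGN. The groups did not overlap, and ATG2A fell by 0.64 (SE 0.099, limma adjusted p = 7.4e-04). ATG2B, with the same activity, was higher by 0.25 in sh-CLGN, a call that was lost with quantile normalization and without sh-NC replicate 1 or sh-CLGN replicate 2, and, where the filter was applied anew, without sh-CLGN replicate 1.

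The ratio of ATG2A to ATG2B was 4.48 ± 0.733 in sh-NC against 2.07 ± 0.319 in sh-CLGN (SD, n = 3). WIPI2, which binds the lipid made by the kinase complex and recruits ATG16L1, had the highest FPKM of this group in sh-NC, at 13.6, 13.2 and 12.8 FPKM in sh-NC and at 12.9, 13.4 and 13.1 FPKM in sh-CLGN. Its libraries overlapped and it was not called, at -0.01, but it was called higher with quantile normalization, with read totals and after GC correction. WIPI1, a related lipid-binding protein, rose by 0.50 from 9.74 ± 0.580 to 14.2 ± 0.611 FPKM (SD, n = 3), so that the ratio of WIPI1 to WIPI2 was 0.738 in sh-NC against 1.08 in sh-CLGN.

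Some of the exonic bases of WIPI1 overlap ARSG on the opposite strand, and ARSG fell by 0.37. ATG9A, the lipid scramblase that seeds the membrane, was not called, at -0.10. Another annotated gene on the same strand shares 38.8% of the exonic bases of ATG9A. The 5 genes of the group summed to 44.9 ± 1.70 FPKM in sh-NC against 45.5 ± 1.35 FPKM in sh-CLGN (SD, n = 3), and the libraries overlapped.

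In the conjugation system, 2 of the 10 genes rose, 4 fell and 4 were not called. ATG4D, a protease of the ATG8 proteins (chr19:10543895-10553418, plus strand), was at 9.75, 10.9 and 7.63 FPKM in sh-NC and at 2.95, 3.29 and 3.32 FPKM in sh-CLGN, from 114 to 363 reads. Every sh-CLGN library lay below the lowest sh-NC library by a wide gap. ATG4D fell by 1.31 (SE 0.115, limma adjusted p = 4.1e-05), and by 1.00 after the GC trend was removed. KRI1, which overlaps it on the opposite strand, fell by 0.33.

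ATG4B, the protease that processes most ATG8 proteins and the member of this group with the highest mean FPKM, was at 12.9, 12.98 and 11.5 FPKM in sh-NC and at 9.29, 9.08 and 9.81 FPKM in sh-CLGN. It was lower in all 3 sh-CLGN libraries, at -0.37. ATG4A and ATG4C, the remaining proteases, were called higher at 0.29 and 0.24, although the libraries of ATG4A overlapped, and ATG4C was at -0.029 after GC correction. Both calls were also lost with no filter, with a filter on the mean and without sh-NC replicate 1 or 2 or sh-CLGN replicate 1, that of ATG4A also without sh-CLGN replicate 3 and after GC correction, and that of ATG4C also without sh-CLGN replicate 2 and with quantile normalization. The ratio of ATG4B to ATG4D was 1.34 ± 0.159 in sh-NC against 2.95 ± 0.196 in sh-CLGN (SD, n = 3).

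ATG7, the enzyme that activates both ATG12 and the ATG8 proteins (chr3:11272309-11557665, plus strand), was at 4.63, 4.32 and 4.68 FPKM in sh-NC and at 2.36, 2.47 and 2.55 FPKM in sh-CLGN. The groups stood clear of each other, and ATG7 fell by 0.68 (SE 0.064, limma adjusted p = 5.5e-05). Its 3′ UTR is also among those 4, and VGLL4, which overlaps it on the opposite strand, was at -0.01 and not called.

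ATG10, which hands ATG12 to ATG5, was lower at -0.25, a call lost with TPM and read-total scaling, with no filter, without sh-NC replicate 1 or 2 or sh-CLGN replicate 2, and, where the filter was applied anew, without sh-CLGN replicate 3. ATG3, which hands ATG8 proteins to lipid, and ATG5, ATG12 and ATG16L1, which form the complex that places them, were not called, at 0.04, 0.07, 0.17 and -0.05. Under TPM, quantile and read-total scaling ATG3, ATG5 and ATG12 were called higher, ATG12 also with voom. ATG5 was at 1.61 ± 0.0606 times the level of ATG7 in sh-NC and at 3.15 ± 0.106 times in sh-CLGN (SD, n = 3).

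**Figure D2:**
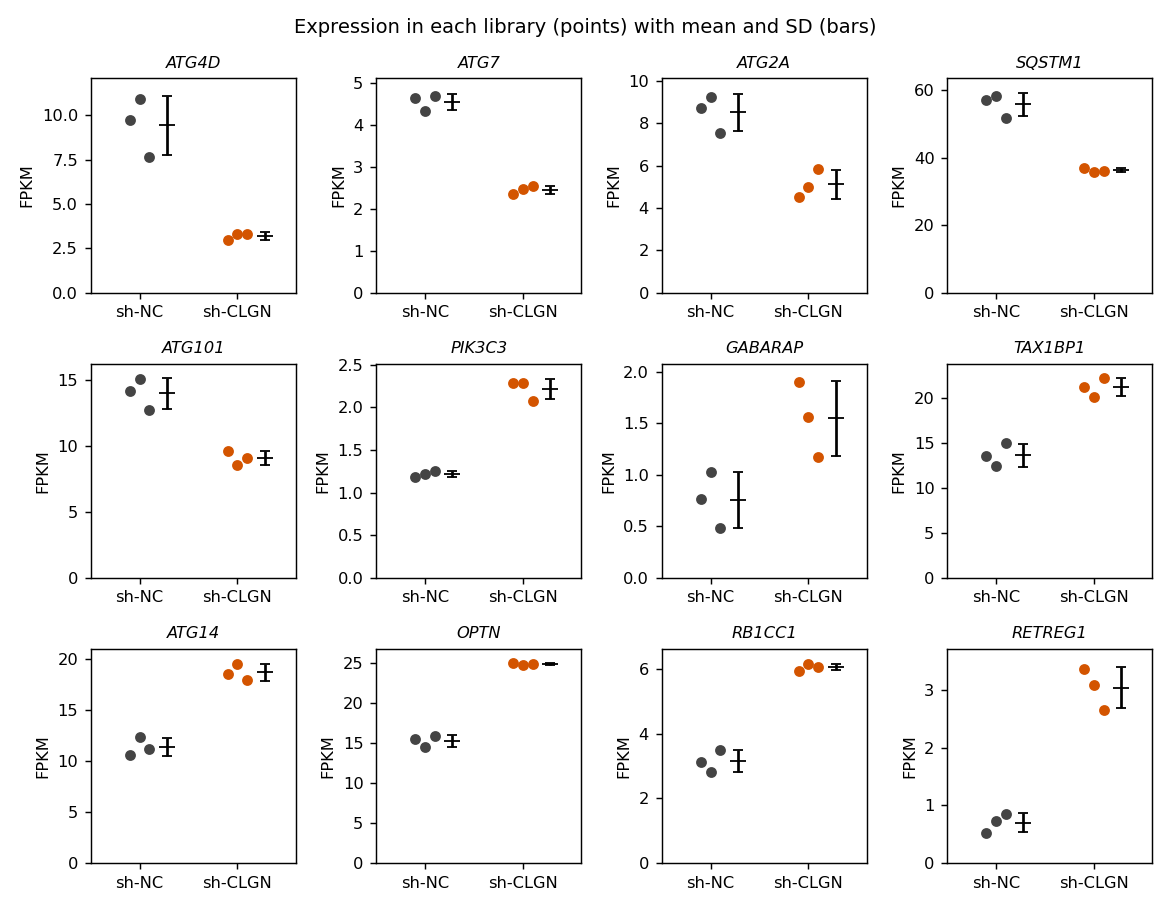
FPKM in each library (points, 3 per group, axes from 0) with the mean and SD beside them, for the 12 called autophagy genes whose log2 fold change was 0.5 or more in either direction, ordered from the lowest to the highest fold change. The groups do not overlap in any panel, and GABARAP has the widest scatter relative to its level.

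Of the 4 ATG8 proteins, which tether cargo to the membrane, 3 rose and 1 fell. MAP1LC3B, the most widely used marker of autophagosomes and the highest of the group, was at 26.8, 27.1 and 29.2 FPKM in sh-NC and at 31.3, 33.3 and 31.0 FPKM in sh-CLGN. The groups did not overlap. MAP1LC3B rose by 0.20 (SE 0.054, limma adjusted p = 0.013), a call that was lost without sh-CLGN replicate 2. GABARAPL1 rose by 0.26, and GABARAPL2 was lower at -0.24, a call lost with TPM, quantile and read-total scaling and without sh-NC replicate 1 or sh-CLGN replicate 2 or 3.

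GABARAP (chr17:7240014-7242770, minus strand) was at 0.759, 1.03 and 0.485 FPKM in sh-NC and at 1.90, 1.56 and 1.18 FPKM in sh-CLGN. All sh-CLGN libraries were higher, at a change of 0.54 (SE 0.150, limma adjusted p = 0.014), and the call was lost with no filter, with quantile normalization and without sh-CLGN replicate 1. It met the filter through its sh-CLGN libraries and 1 sh-NC library. These values rest on 17 to 73 reads, and 55.7% of its exonic bases are shared with other annotated genes, so the level is uncertain.

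Of the 5 cargo receptors, 3 rose and 2 fell. SQSTM1, which links ubiquitin-tagged cargo to ATG8 proteins (chr5:179806398-179838078, plus strand), was at 57.3, 58.4 and 51.8 FPKM in sh-NC and at 36.9, 35.8 and 36.2 FPKM in sh-CLGN. The sh-CLGN libraries lay close together and below every sh-NC library. SQSTM1 fell by 0.61 (SE 0.056, limma adjusted p = 5.1e-05), over a range of -0.66 to -0.32 in the alternatives. On the opposite strand it overlaps MGAT4B, which fell by 0.73, and MRNIP, which rose by 0.20.

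OPTN, a receptor for damaged mitochondria and bacteria (chr10:13099449-13138308, plus strand), was at 15.4, 14.4 and 15.8 FPKM in sh-NC and at 25.0, 24.7 and 24.8 FPKM in sh-CLGN. The groups were fully separated, with a change of 0.67 (SE 0.050, limma adjusted p = 1.9e-05). TAX1BP1, which carries ubiquitin-tagged aggregates (chr7:27739331-27844564, plus strand), was at 13.5, 12.4 and 15.0 FPKM in sh-NC and at 21.2, 20.2 and 22.2 FPKM in sh-CLGN. It was higher in every sh-CLGN library, at 0.60 (SE 0.073, limma adjusted p = 2.0e-04).

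NBR1, a partner of SQSTM1, was higher at 0.14, a call lost without an intensity trend and without any of sh-NC replicate 1 and sh-CLGN replicates 1, 2 and 3. CALCOCO2, a receptor for bacteria and mitochondria, was lower at -0.19, a call lost with TPM, quantile and read-total scaling and without sh-CLGN replicate 2 or 3. The summed level of the 5 receptors was 113 ± 0.883 FPKM in sh-NC against 111 ± 1.46 FPKM in sh-CLGN (SD, n = 3), and the libraries overlapped.

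Within that sum the shares differed. SQSTM1 made up 49.4% ± 2.74 of it in sh-NC against 32.6% ± 0.274 in sh-CLGN (SD, n = 3). OPTN made up 13.5% and 22.3%, and TAX1BP1 12.1% and 19.02%. The level of OPTN was 0.274 ± 0.0291 of that of SQSTM1 in sh-NC against 0.684 ± 0.00738 in sh-CLGN (SD, n = 3), higher in 3 of 3 libraries. These shares were examined after the values of the single genes had been seen.

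**Figure D3:**
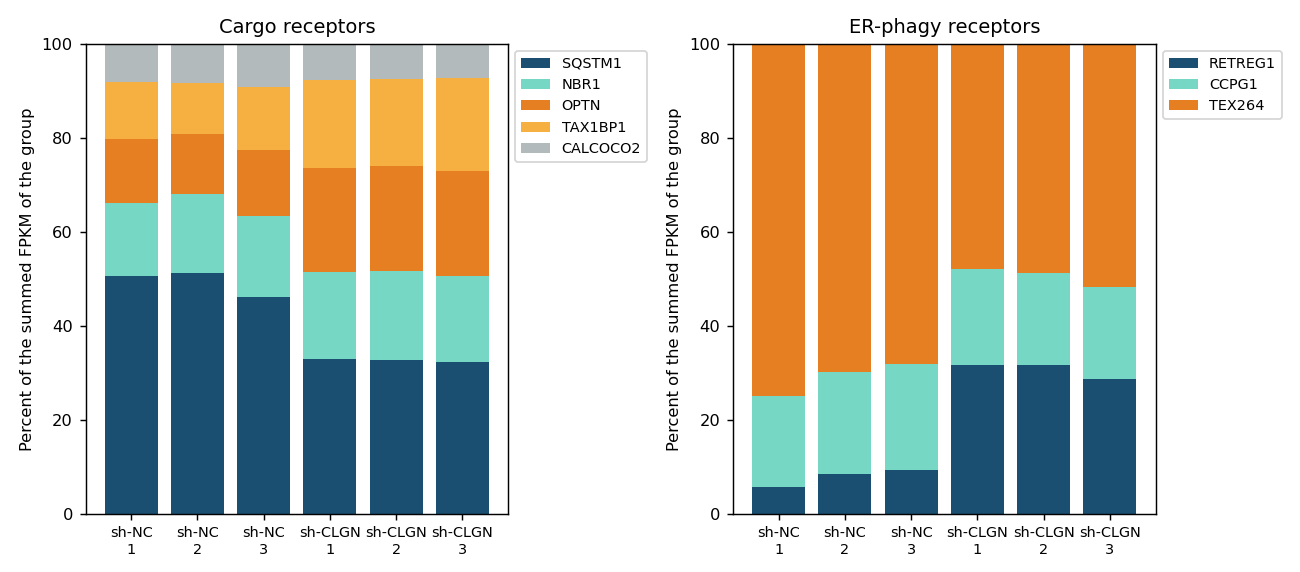
Share of each gene in the summed FPKM of its group (percent, stacked to 100) in each of the 6 libraries, for the 5 cargo receptors on the left and the 3 receptors of the endoplasmic reticulum on the right. The SQSTM1 share is 46.2 to 51.3% in sh-NC against 32.3 to 32.8% in sh-CLGN, and the RETREG1 share is 5.71 to 9.28% and 28.6 to 31.7%.

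The receptors for the endoplasmic reticulum, the compartment of calmegin, held 1 member that rose, 1 that fell and 1 that was not called. RETREG1, a membrane-curving receptor of the sheets of this compartment (chr5:16473038-16617058, minus strand), was at 0.518, 0.720 and 0.849 FPKM in sh-NC and at 3.37, 3.08 and 2.66 FPKM in sh-CLGN. The lowest sh-CLGN library was far above the highest sh-NC library. The change was 1.25 (SE 0.108, limma adjusted p = 3.7e-05) on the log2(FPKM + 1) scale, the ratio of the mean FPKM was 4.37, and voom on the recovered reads gave 2.13. No sh-NC library reached 1 FPKM, so RETREG1 was tested only because it was high in sh-CLGN. With no expression filter the change is the same by construction, and only the adjusted p can differ (limma adjusted p = 6.7e-04). The sh-NC values rest on 33 to 60 reads and the sh-CLGN values on 196 to 261 reads.

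TEX264, the receptor of this group with the highest mean FPKM (chr3:51662693-51704323, plus strand), was at 6.80, 5.98 and 6.24 FPKM in sh-NC and at 5.10, 4.76 and 4.80 FPKM in sh-CLGN. It was lower in every sh-CLGN library, at -0.32 (SE 0.064, limma adjusted p = 0.0029), a call lost with scaling by read totals and after GC correction. CCPG1, a receptor known to be induced by stress of the endoplasmic reticulum, was not called, at 0.03, and 39.8% of its exonic bases are shared with other genes. RETREG1 stood at 0.111 ± 0.0311 of the level of TEX264 in sh-NC and at 0.621 ± 0.0585 in sh-CLGN (SD, n = 3).

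The members that rose and those that fell differed in base composition, which the list did not use. The median GC content of the longest annotated transcript was 44.6% (34.8 to 50.4%) for the 15 that rose and 53.6% (42.1 to 64.8%) for the 12 that fell. Over all genes tested it was 43.9% for those that were higher and 52.0% for those that were lower. Across the 37 members, which share the same 6 libraries, the Spearman correlation of fold change with GC content was -0.54 (Pearson -0.60), and across all genes it was -0.32. After the GC trend was removed from each library, the Spearman value over the members was -0.24, and 24 of the 27 calls were kept.

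**Figure D4:**
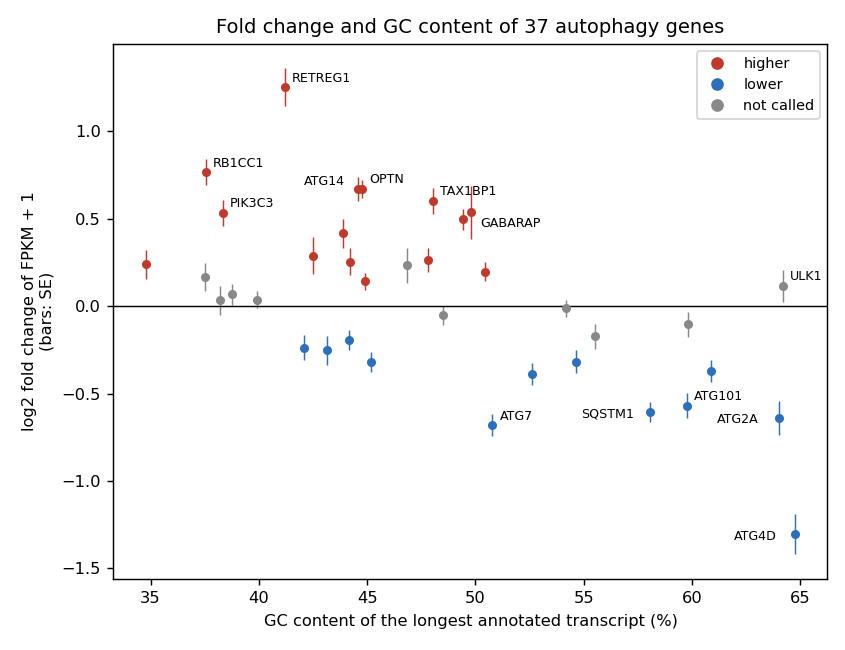
Log2 fold change of FPKM + 1 (bars are SE) against the GC content of the longest annotated transcript for the 37 tested autophagy genes, coloured by call. The members that rose lie between 34.8 and 50.4% GC and those that fell between 42.1 and 64.8%, with ATG4D at the GC-rich end.

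Promoters were searched because transcription factors of the TFEB family, which bind the sequence CACGTG, are known to control autophagy genes. RefSeq sequence (GRCh38.p14, 250 bases before to 50 after the start) was matched for 35 of the 38 members. A single start was used per gene, and some windows, such as those of ATG5 and AMBRA1, lie inside the annotated gene. CACGTG was in the promoters of ATG14 and ATG3, that is 5.71% of the members, against 7.43% of all 27305 promoters and 10.4% of those of tested genes. The longer TCACGTG, which contains it, was in the same promoters on either strand, against 3.82% of all and 6.05% of those of tested genes. Windows of 30 bases are shown with CACGTG in capitals, for ATG14 (chr14:55411834-55411863, minus strand) and ATG3 (chr3:112561951-112561980, minus strand).
ATG14: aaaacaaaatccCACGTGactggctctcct
ATG3: CACGTGccgggagagtctagtgtCACGTGa
Of these, ATG14 rose and ATG3 was not called. On both strands, TGATGNAA, bound by ATF4, was found in 0 of the 35 promoters against 3.67% of all and 1.598% of those of tested genes. TGTTTAC, bound by FOXO factors, was in that of CALCOCO2 alone, against 3.41% and 2.28%, and TGACNNNGC, bound by NRF2, was in those of ATG101, CALCOCO2 and MAP1LC3B, against 13.6% and 15.3%. The absence of these letters from a window says nothing about the factor.

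To place the members within the wider pathway, 87 further autophagy genes were listed in 5 groups, of which 79 were tested. Of these, 22 rose (27.8%) and 35 fell (44.3%), against 26.7% and 39.0% of all genes. The median log2 fold change was -0.13. Past an absolute log2 fold change of 1 were SESN3, which rose, and DDIT4, SESN2 and TRIB3, which fell.

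The control of mTORC1 and AMPK, the kinases that sense nutrients and energy, held 14 genes that rose and 9 that fell among 30. DDIT4, an inhibitor of mTORC1 induced by stress, was at 106, 104 and 89.3 FPKM in sh-NC and at 29.8, 26.6 and 27.5 FPKM in sh-CLGN. It fell by 1.79, without overlap. SESN2, a leucine sensor that restrains mTORC1, was at 65.1, 70.2 and 60.7 FPKM in sh-NC and at 18.1, 18.97 and 21.1 FPKM in sh-CLGN, and fell by 1.70. SESN3, of the same family, was at 2.66, 2.47 and 3.14 FPKM in sh-NC and at 7.52, 8.90 and 7.83 FPKM in sh-CLGN, and rose by 1.27. These sestrins moved in opposite directions, each with separated libraries.

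Among 8 tested transcription regulators, 0 rose and 5 fell (0% and 62.5%, against 26.7% and 39.0% of all genes). TRIB3, a pseudokinase that is a target of ATF4, fell by 1.56 from 121 ± 11.8 to 40.2 ± 0.959 FPKM (SD, n = 3). ATF4, the main transcription factor of the integrated stress response, fell by 0.57 from 250 ± 11.4 to 168 ± 3.39 FPKM (SD, n = 3). TFE3, a relative of TFEB, fell by 0.61, and TFEB itself had 47 to 67 reads per library and was not tested. Both of the last were named after their values were seen.

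Of the 17 tested cargo receptors and adaptors outside the members, 4 rose and 10 fell. These were 23.5% and 58.8%, against 26.7% and 39.0% of all genes. The lower calls of ATL3, RETREG2, RETREG3 and BCL2L13 were lost with TPM and with scaling by read totals. PHB2, a receptor of the inner mitochondrial membrane, fell by 0.94 from 125 ± 7.61 to 64.4 ± 1.48 FPKM (SD, n = 3). RTN3, a receptor of the tubules of the endoplasmic reticulum, fell by 0.61 from 37.4 ± 0.677 to 24.2 ± 0.284 FPKM (SD, n = 3).

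Of the 14 factors of autophagosome fusion, 2 rose and 8 fell (14.3% and 57.1%, against 26.7% and 39.0% of all genes). The lower calls of SNAP29, YKT6, RAB7A, VPS11, VPS18 and LAMP1 were lost with TPM and with scaling by read totals. With quantile normalization RAB7A and LAMP1 were called higher, both at 0.14. On the deposited scale the smallest adjusted p values belonged to the factors that rose. These were VPS41, a tethering subunit, at 0.43, and LAMP2, a lysosomal membrane protein, at 0.40. Among 10 tested core factors outside the members, 2 rose and 3 fell, and SH3GLB1, a membrane-bending partner of BECN1, rose by 0.86 from 8.95 ± 0.169 to 17.1 ± 0.446 FPKM (SD, n = 3). WDR45, a relative of the WIPI proteins, rose by 0.52.

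**Figure D5:**
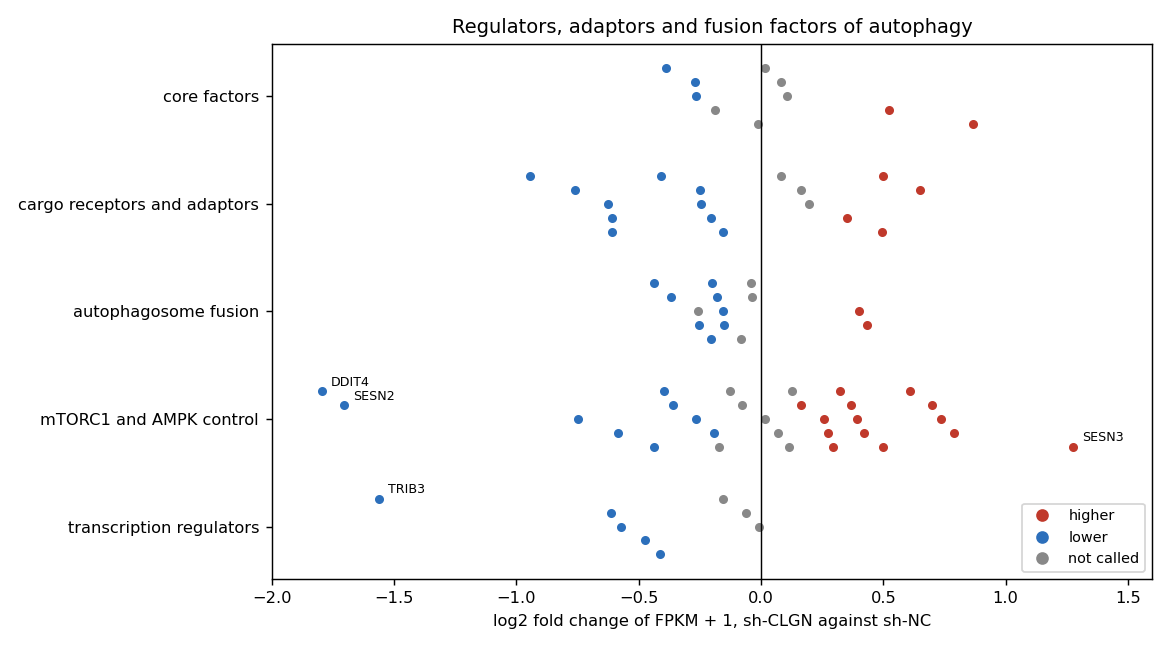
Log2 fold change of FPKM + 1 in sh-CLGN against sh-NC (horizontal axis) for the 79 tested further autophagy genes in 5 groups, 1 point per gene, with red for higher, blue for lower and grey for not called, and vertical position within a group without meaning. DDIT4, SESN2 and TRIB3 lie below -1.5 and SESN3 at 1.27. None of the 8 transcription regulators is red, where 26.7% of all genes tested were called higher.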

How the data were processed

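Expression was analysed in 6 libraries, 3 sh-NC and 3 sh-CLGN, grouped by their labels. The authors deposited FPKM values per gene. The submitters' processing notes name HISAT2 2.0.5, featureCounts and GRCh38. The annotation and strand setting are not given in the sources used here. AC068946.2 had 0 to 6 reads per library although it shares 38.8% of the exonic bases of ATG9A. DNAAF4-CCPG1, which overlaps CCPG1 on the same strand, had 0 reads. Reads in those shared bases were therefore not counted for both genes, and members with shared bases may be undercounted. Positions of all 58735 genes equalled GENCODE 29. FPKM times gene length was whole within 0.01 of a read for 100% of the values. The library sizes behind the FPKM were 0.933 to 0.953 of the reads for sh-NC and 1.07 to 1.08 for sh-CLGN. Median-ratio size factors of the FPKM values (the median over genes of a library's ratio to their geometric mean) were 1.01 in all 6 libraries. The deposited values were thus already on a median-ratio scale, and median-ratio scaling as an alternative could change little. Scaling by read totals removes this adjustment. At 1 kb of gene length, 1 read equalled 0.0589 to 0.0717 FPKM, and reads carried no molecular identifiers. Pairs of libraries differed by a chi-square per gene of 2.12 to 7.85 within groups and 63.1 to 76.6 between groups, so none was counted as a duplicate.

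Genes that reached 1 FPKM in 3 or more libraries were tested with limma 3.58.1 (R 4.3.3, eBayes with an intensity trend) on log2(FPKM + 1), two-sided, with Benjamini-Hochberg adjustment over 13074 genes. Values in every library are given for members called at 0.05 with a log2 fold change of 0.5 or more in either direction and for the member with the highest mean FPKM of each group. Further genes were named at a called log2 fold change of 1 or more in either direction, or as the 2 with the smallest adjusted p of their list. Fusion factors, cargo receptors and adaptors were also named where TPM and read totals removed a lower call. CLGN was named as the target, and overlapping neighbours and MAP1LC3B2 were named after the members' values were seen. Members and lists were chosen with earlier results of these data known. The summed level of the immune markers is not reported here. The fit was tested on simulated data. Of 188 genes given a log2 change of 0.5 it recovered 82 with 6 false calls. Of 183 given 1 it recovered 172 with 13, and with none changed it called 3. All simulated libraries were drawn from sh-NC means with an assumed spread, few changed genes and no GC trend. These false-call numbers therefore do not carry over to the data. Alternatives were a pseudocount of 0.1, other filters, scalings and tests, a test against a fold change of 1.2, voom on recovered reads, the replicate number as a block, a GC correction (lowess span 0.3) and leaving out each library. Sequences were read with pandas 2.3.3 and numpy 2.4.6 in Python 3.11.15, and figures drawn with matplotlib 3.10.9.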

Additional observations from a re-analysis of the deposited data

How the results depend on the processing

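A test against a fold change of 1.2 called 4382 of all genes (8598 against 0), 7 members higher and 5 lower (15 and 12), and 12 further genes higher and 13 lower (22 and 35). It asks for more than a nonzero change. Further genes called lower numbered 22 with TPM, 18 with quantile normalization and 21 with scaling by read totals, and members called lower numbered 7 with scaling by read totals. Those called higher were then 23, 28 and 31 of the further genes, and 21 of the members with read totals. Relative to the deposited scale, the median log2 fold change over all genes lay 0.11 higher with TPM and 0.16 higher with read totals. With the GC trend removed, 1 member passed both thresholds in place of 2, and ATG4C was at -0.029 (0.24 without the correction). ATG4D then stood just under the fold threshold, and the cause of these changes was not tested.

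Leaving out each library in turn, with the genes tested as with all 6, gave 7634 to 8760 calls over all genes, 11 to 15 members higher, 9 to 12 lower and 2 past both thresholds, 19 to 23 further genes higher and 29 to 36 lower, and a CLGN change of -1.39 to -1.24. These fits had first been made with the expression filter applied anew to the 5 libraries left. The filter was changed to the genes tested with all 6 after those first values had been seen, so that a single choice differed at a time. The first version gave 7095 to 8628 calls over all genes, 9 to 15 members higher, 9 to 12 lower, 18 to 23 further genes higher and 29 to 36 lower, and the same CLGN range. In it, 9 members were higher without sh-CLGN replicate 1. It left 1 member past both thresholds without sh-CLGN replicate 1, 2 or 3, since RETREG1 reaches 1 FPKM in the sh-CLGN libraries alone and was then not tested.

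With the replicate number as a block, 23 of the 27 member calls were kept. ATG10, ATG4C, CALCOCO2 and NBR1 lost theirs and UVRAG gained one. The numbers did not pair the samples, with correlations of same-numbered deviations of -0.018, -0.046 and -0.15. Low read numbers limit ULK2 (13 to 21 reads) and GABARAP (17 to 73 reads) most. Whether the shared exonic bases of GABARAP lowered its reads was not tested.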

Other observations

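Processed pseudogenes were searched only by symbol, as that of a member followed by P and a number, and carried almost no reads. Of 6 found, those of BECN1, ATG3, ATG4A and MAP1LC3B had 0 reads in every library, SQSTM1P1 had at most 2 and ATG12P2 at most 6. Copies under other symbols were not searched, and MAP1LC3B2, 1 of the further genes, had 39 to 71 reads per library.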
